A study of Mus musculus with 15 samples.

Results

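Replication-dependent histone genes were followed in poly(A)-selected RNA of mouse B cells. The members were the rows of the deposited expression table whose symbol begins with Hist, a cluster number from 1 to 4 and h. This rule found 64 genes of the 21761 in the table: 6 of class H1, 15 of H2a, 19 of H2b, 11 of H3 and 13 of H4. By chromosome, 52 of them lie on chromosome 13, 8 on chromosome 3, 3 on chromosome 11 and 1 on chromosome 6.

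B cells that lacked the surface marker CD43 came from the spleens of wild-type female C57BL/6J mice. They were grown for 3 days with lipopolysaccharide (LPS) and the cytokines IL-2 and IL-5, with either GSK-J4 at 250 nM or its solvent DMSO. GSK-J4 inhibits KDM6A and KDM6B, the enzymes that remove methyl groups from lysine 27 of histone H3. The groups, of 3 libraries each, were CD138+ cells with GSK-J4, CD138+ cells with DMSO, GL7+ cells with GSK-J4, GL7+ cells with DMSO, and naive CD43- cells with neither stimulation nor drug. CD138 marks plasmablasts and plasma cells, and GL7 marks activated B cells. Cells were enriched with magnetic beads, so a fraction can hold other cells. Replicate numbers stand for mice, and 1 library of the CD138+ GSK-J4 group, here replicate 4, could not be tied to a mouse.

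The genes of these classes encode the bulk of the proteins that package new DNA. H2A, H2B, H3 and H4 form the nucleosome core, and H1 binds the linker DNA between nucleosomes. Their messages are made mostly in S phase and normally end in a conserved stem-loop in place of a poly(A) tail. The stem-loop binding protein SLBP and the U7 small nuclear ribonucleoprotein direct this ending, and the message is degraded when DNA synthesis stops. Some of these genes can also make polyadenylated messages from a signal further downstream, most often in cells that leave the cycle and differentiate. Since the libraries were made from poly(A)-selected RNA, the values below measure polyadenylated transcripts together with any tailless transcripts carried through the selection. They are not the total amount of histone mRNA.

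The 3′ ends carry the distinction, so they are shown for the members to which the results return. The stem-loop was searched on the transcript strand as GG, any 2 bases, CTTTT, any base, AG, any 2 bases and CC, in the longest coding transcript of each gene in GENCODE M21 (GRCm38). It was found in 39 of the 63 members with a coding transcript there. With any coding transcript of a gene allowed, it was found in 72 of 21877 coding genes (0.329%), of which 40 were members. The sites below have the stem-loop in capitals.
Hist1h1c: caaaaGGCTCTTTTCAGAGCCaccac
Hist1h1e: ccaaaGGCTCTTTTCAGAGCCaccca
Hist1h2bg: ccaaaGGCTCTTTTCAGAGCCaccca
Hist3h2a: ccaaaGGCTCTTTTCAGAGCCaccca
Hist1h4i: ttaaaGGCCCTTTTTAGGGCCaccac
Hist1h4m: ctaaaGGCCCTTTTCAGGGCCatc

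The annotated transcript of Hist1h4m stopped 3 bases after the stem-loop, that of Hist1h1c ran on for 840 bases and that of Hist1h1e for 1153 bases. The canonical poly(A) signal AATAAA lay within 50 bases of the annotated end in 13 members, of which 8 also had the stem-loop. Hist2h2be had the poly(A) signal and no stem-loop match. Hist1h1c and Hist3h2a had both. The capitals here mark the signal.
Hist1h1c: atgcttctAATAAAaagcgtttagtttt
Hist2h2be: ttattattAATAAAgttaccgattagtt
Hist3h2a: atatgcccAATAAAataagagtacgtgt

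A missing match says only that these letters are not in the annotated sequence. In 29 of the 63 members the gene length used by the authors equalled the reading frame, so for these the table held no untranslated sequence and could not tell a long 3′ end from a short one. Hist1h2ai, Hist1h2ak, Hist1h2an, Hist1h2bl, Hist1h2bn and Hist1h4k were among them. Levels are given as RPKM (reads per kilobase of gene length, scaled to library depth). Comparisons between genes, and shares of a summed level, therefore rest on the lengths used by the authors. Over the 15 libraries Hist1h1c, of 1561 bases, had 9700 reads, and Hist1h2ai, of 393 bases, had 5840.

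Promoters were compared over 250 bases before to 50 bases after the start (RefSeq, GRCm38.p6), which matched 58 of the 64 members. The octamer ATTTGCAT, the element that binds OCT factors in H2B promoters, was searched on both strands. It occurred in 7 of 15 H2a promoters and 7 of 16 H2b promoters, in 0 of 6 H1, 0 of 9 H3 and 0 of 12 H4 promoters, and in 1.74% of all 32851 promoters of the table. Neighbouring H2a and H2b promoters can overlap, as for Hist1h2ae and Hist1h2bg, so the same site can count in both classes. CCAAT stood in every H1, H2a, H2b and H3 promoter matched, in 3 of 12 H4 promoters and in 37.4% of all. TATAAA stood in 4 of 6 H1, 10 of 15 H2a, 8 of 16 H2b, 4 of 9 H3 and 8 of 12 H4 promoters, against 13.6% of all. None of the 3 motifs contains another. The promoters of 3 members that differ in level and in pattern follow, with all matches to the 3 motifs in capitals (ATTGG is CCAAT on the other strand).
Hist1h1c, chr13:23738557-23738856 (plus strand): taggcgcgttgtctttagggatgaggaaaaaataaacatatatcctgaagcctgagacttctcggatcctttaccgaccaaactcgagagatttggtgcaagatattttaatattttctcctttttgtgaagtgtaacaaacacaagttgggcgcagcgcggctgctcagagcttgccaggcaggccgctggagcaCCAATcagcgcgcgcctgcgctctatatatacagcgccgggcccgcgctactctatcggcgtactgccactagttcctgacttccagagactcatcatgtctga
Hist1h2ai, chr13:21716162-21716461 (plus strand): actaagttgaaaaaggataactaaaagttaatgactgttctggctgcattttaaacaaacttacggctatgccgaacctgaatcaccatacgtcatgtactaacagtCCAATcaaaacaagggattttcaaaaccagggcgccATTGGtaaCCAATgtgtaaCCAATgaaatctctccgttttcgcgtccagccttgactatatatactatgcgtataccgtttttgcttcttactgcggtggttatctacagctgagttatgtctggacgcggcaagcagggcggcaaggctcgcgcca
Hist1h2bg, chr13:23571150-23571449 (plus strand): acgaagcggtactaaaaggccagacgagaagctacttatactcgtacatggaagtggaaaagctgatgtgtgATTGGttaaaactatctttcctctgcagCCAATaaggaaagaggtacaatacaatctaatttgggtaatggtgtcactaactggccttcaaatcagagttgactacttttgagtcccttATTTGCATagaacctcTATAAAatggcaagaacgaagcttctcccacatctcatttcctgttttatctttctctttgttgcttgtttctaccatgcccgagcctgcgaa

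Depth, recovered from the step between low values, was 6241305 to 7712268 reads in CD138+ GSK-J4, 9677268 to 11635532 in CD138+ DMSO, 9174332 to 12211998 in GL7+ GSK-J4, 9805726 to 11519619 in GL7+ DMSO and 1318004 to 13189896 in naive libraries. The shallowest was naive replicate 2, in which the 64 members together had 79 reads, against 1030 and 516 in the other naive libraries and 1757 to 3675 in the cultured ones. In that library 3 reads, the limit that a count of 0 allows, come to 7.30 RPKM for a gene of 312 bases, the length of an H4 reading frame, against 0.73 to 1.56 RPKM elsewhere. These limits cover counting error only. The test took in genes that reached 1 RPKM in 3 or more libraries, 10866 genes in all and 33 of the 64 members: 5 of H1, 8 of H2a, 9 of H2b, 4 of H3 and 7 of H4. The test was limma on log2(RPKM + 1), a scale that understates the change of low genes, with a Benjamini-Hochberg adjusted p under 0.05 counted as passed.

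A few genes carried most of the signal. Over the 15 libraries 7 members averaged at least 10 RPKM, 23 averaged between 1 and 10 RPKM and 34 averaged under 1 RPKM. The 3 highest members made up 55.2% of the summed level. Within the classes Hist1h1c held 82.7% of the H1 sum, Hist1h2ai 59.8% of the H2a sum, Hist1h2bl 30.6% of the H2b sum, Hist1h3i 31.6% of the H3 sum and Hist1h4i 33.8% of the H4 sum. At the other end, 21 members stayed under 1 RPKM in every library, and Hist1h2aa and Hist1h2ba, the testis forms of H2A and H2B, had no read in any.

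Levels were spread unevenly over chromosome 13. Its 52 members fall into 3 blocks, parted wherever more than 20 other genes lie between neighbours in the RefSeq gene order (a division made after the levels were seen). The block that begins with Hist1h2bl and ends with Hist1h2br has 17 members, among them Hist1h2ai, Hist1h2ak, Hist1h2an, Hist1h2ao, Hist1h3h, Hist1h3i, Hist1h4k and Hist1h4m, and 5 of the 7 members that averaged at least 10 RPKM, but also Hist1h2br at 0.113 RPKM. It held 68.9% of the summed level of all members in CD138+ GSK-J4, 65.0% in CD138+ DMSO, 75.5% in GL7+ GSK-J4, 76.1% in GL7+ DMSO and 38.2% in naive cells. A second block of 5 members had a single one above 1 RPKM on average, Hist1h4i. The third block of 30 members had 8 above 1 RPKM, led by Hist1h1c.

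Neighbours within a pair could differ widely. H2A and H2B genes lie side by side as divergent pairs, often with a shared promoter region. In the pair of Hist1h2ai and Hist1h2bl the means were 105 and 12.9 RPKM. In that of Hist1h2an and Hist1h2bp they were 26.6 and 0.347 RPKM. In the pairs of Hist1h2ac with Hist1h2bc and of Hist1h2ae with Hist1h2bg the order was the other way, at 0.582 and 4.94 RPKM and at 0.528 and 2.08 RPKM.

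**Figure D1:**
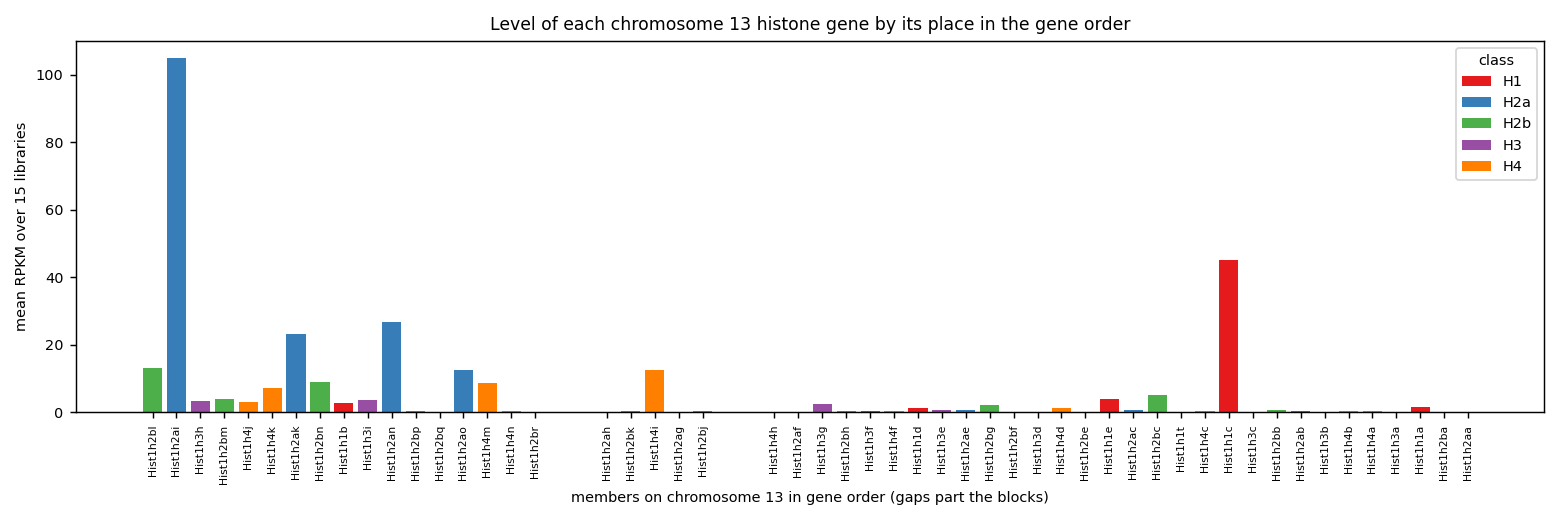
Mean RPKM over the 15 libraries of each chromosome 13 member, coloured by class and set in gene order, with gaps between the 3 blocks. Hist1h2ai at 105 RPKM and Hist1h1c at 45.1 RPKM stand out, and most members of the third block lie near 0.

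Near-identical reading frames limit how far single members can be told apart. Among the 53 members with a partner of equal reading-frame length, 39 differed from the nearest one by at most 10 bases. Hist1h2ai differed from Hist1h2ag by 5 of 393 bases, from Hist1h2ao by 6, from Hist1h2an by 7 and from Hist1h2ak by 10, and the longest stretch shared with Hist1h2an was 293 bases. Hist1h2ag nevertheless averaged 0.0382 RPKM. Hist1h4m and Hist1h4n have the same reading frame and averaged 8.54 and 0.365 RPKM, over lengths of 405 and 312 bases. Hist1h2bc and Hist1h2bg differed by 5 of 381 bases. How the authors counted reads that align to several copies is not given in the sources used here, so values of Hist1h2ai, Hist1h2ak, Hist1h2an, Hist1h2ao, Hist1h2bc, Hist1h2bg, Hist1h2bl, Hist1h2bn and the H3 and H4 genes are uncertain as single-gene values. Hist2h2be, 46 bases from its nearest partner, and Hist3h2a, 40 bases from its own, are less exposed to this.

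The first question was how these genes changed when naive B cells became stimulated cultures. The summed level of every class was higher in the cultured cells, and 2 members passed lower. The summed level of the 64 members was 417 ± 23.0 RPKM in CD138+ DMSO and 327 ± 32.4 RPKM in GL7+ DMSO cells, against 68.9 ± 14.0 RPKM in naive cells (SD, n = 3 each). Every class sum was higher in every cultured DMSO library than in every naive one. H2a stood at 212 ± 12.7 RPKM in CD138+ DMSO and 193 ± 34.9 RPKM in GL7+ DMSO, against 22.2 ± 4.59 RPKM in naive cells, and H3 at 14.2 ± 3.37 RPKM in CD138+ DMSO and 12.3 ± 1.95 RPKM in GL7+ DMSO, against 1.83 ± 0.559 RPKM in naive cells. In ratio H2b differed least, at 49.7 ± 1.55 RPKM in CD138+ DMSO and 40.9 ± 4.98 RPKM in GL7+ DMSO, against 21.1 ± 2.29 RPKM in naive cells.

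**Figure D2:**
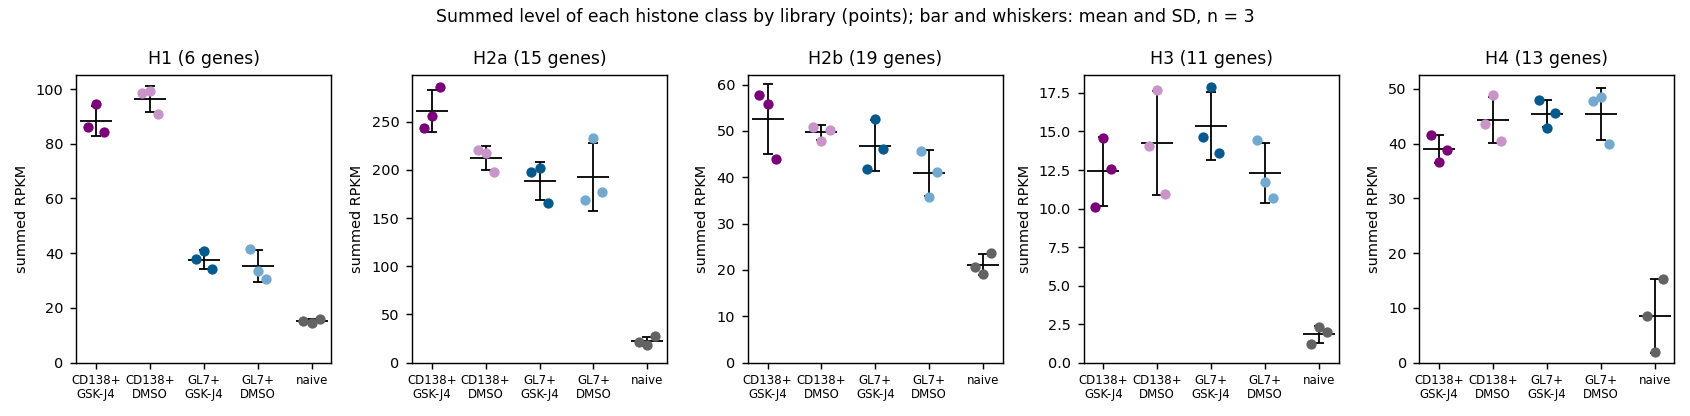
Summed RPKM of each histone class in every library (points), with mean and SD (n = 3 per group). Naive libraries lie lowest in all 5 panels, and the H1 panel parts the CD138+ libraries (84.2 to 99.4 RPKM) from the GL7+ ones (30.7 to 41.7 RPKM).

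In CD138+ DMSO against naive cells 25 of the 33 tested members passed higher and 2 lower, 81.8% in all, against 83.4% of all tested genes, of which 39.9% passed higher and 43.5% lower. In GL7+ DMSO against naive cells 24 passed higher and 2 lower, 78.8%, against 81.7% of all tested genes, with 41.3% higher and 40.3% lower. The share that changed is thus near that of all genes, and nothing is read from it. The groups did not overlap in 26 members (78.8%) in each comparison, against 82.2% of all tested genes in CD138+ DMSO and 80.7% in GL7+ DMSO. Of the 33 tested members 12 were under 1 RPKM in every naive library. They were 3 of 5 H1, 1 of 8 H2a, 2 of 9 H2b, 3 of 4 H3 and 3 of 7 H4 genes. These entered the test through the cultured libraries, which favours a rise, so neither the counts nor a median over the tested members is support. A call was not forced, since Hist3h2bb-ps, 1 of the 12, did not pass in CD138+ DMSO or GL7+ DMSO (limma adjusted p = 0.15 and 0.25). With no filter on low values, which admits 62 members, 31 passed higher and 1 lower in CD138+ DMSO, and 25 higher and 2 lower in GL7+ DMSO. The share of all genes called by that fit is not given here, so these counts are no support either.

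Although the longer Hist1h1c had more reads in every CD138+ library, Hist1h2ai, an H2A core histone gene, had the highest RPKM in every cultured library. It had 128, 128 and 120 RPKM in CD138+ DMSO and 104, 136 and 103 RPKM in GL7+ DMSO, against 5.98, 7.72 and 9.48 RPKM in naive cells. The cultured and naive values did not overlap. The means were 16.3 times the naive mean in CD138+ DMSO and 14.8 times in GL7+ DMSO, with log2 changes of 3.88 ± 0.13 (SE, limma adjusted p = 6.9e-13) and 3.73 ± 0.13 (adjusted p = 1.6e-12).

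Hist1h2an had 33.9, 38.9 and 29.9 RPKM in CD138+ DMSO and 25.0, 40.2 and 27.5 RPKM in GL7+ DMSO, against 1.35, 0 and 2.06 RPKM in naive cells. Its log2 changes, 4.18 ± 0.29 and 4.02 ± 0.29 (SE, limma adjusted p = 3.6e-09 and 6.8e-09), were the largest of any tested member in either comparison. Hist1h2ak and Hist1h2ao, the other 2 strong H2A genes of the same block, rose by 2.93 and 3.38 on the log2 scale in CD138+ DMSO and by 2.76 and 3.32 in GL7+ DMSO. Hist1h2ao rested on 17 reads over the naive libraries and was under 1 RPKM in each, so its entry to the test favoured a rise. Together the 4 genes made up 48.3% to 49.6% of the summed level of all members in CD138+ DMSO libraries and 50.6% to 62.4% in GL7+ DMSO libraries, against 15.5% to 20.6% in naive libraries.

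The linker histone Hist1h1c, which encodes H1.2, was the most abundant member in naive cells. It had 82.0, 86.0 and 77.9 RPKM in CD138+ DMSO and 25.3, 25.4 and 21.8 RPKM in GL7+ DMSO, against 14.0, 13.1 and 13.9 RPKM in naive cells. None of the 3 groups overlapped. The log2 change against naive cells was 2.50 ± 0.07 in CD138+ DMSO (SE, limma adjusted p = 7.3e-14) and 0.77 ± 0.07 in GL7+ DMSO (adjusted p = 6.5e-08). Hist1h1e, which encodes H1.4, rose by 1.85 in CD138+ DMSO and 1.30 in GL7+ DMSO, and Hist1h1b, the H1.5 gene, by 2.20 in CD138+ DMSO and 1.90 in GL7+ DMSO on the same scale. Hist1h1b rested on 2 reads over the naive libraries and was under 1 RPKM in each, so its entry to the test favoured a rise.

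The H3 genes were close to the limit of detection in naive cells. Hist1h3i had 3.85, 6.23 and 4.15 RPKM in CD138+ DMSO and 5.57, 3.80 and 3.80 RPKM in GL7+ DMSO, against 0.47, 0 and 0.67 RPKM in naive cells, which rested on 5 reads there. Hist1h3h rested on 1 read over the naive libraries, so its level there is a limit of depth. Hist1h4i, the strongest H4 gene, had 15.2, 16.3 and 14.2 RPKM in CD138+ DMSO and 13.7, 16.1 and 13.9 RPKM in GL7+ DMSO, against 2.12, 0 and 3.62 RPKM in naive cells (log2 changes 2.74 ± 0.36 and 2.67 ± 0.36, SE, limma adjusted p = 4.7e-06 and 6.4e-06). Between CD138+ DMSO and GL7+ DMSO its log2 difference was 0.06 ± 0.36 and did not pass (SE, limma adjusted p = 0.9). Among the H2b genes Hist1h2bl had 15.5, 13.5 and 14.6 RPKM in CD138+ DMSO and 16.6, 10.8 and 14.5 RPKM in GL7+ DMSO, against 3.58, 3.98 and 3.82 RPKM in naive cells.

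The 2 members that passed lower both have AATAAA at the annotated end and long counted sequence beyond the reading frame, 2237 bases in Hist2h2be and 1597 bases in Hist3h2a. Neither feature was particular to them. Hist3h2ba has AATAAA and 239 such bases. In GL7+ DMSO it lay below every naive library and did not pass (log2 change -0.43 ± 0.28, SE, limma adjusted p = 0.17). In CD138+ DMSO it overlapped the naive values (limma adjusted p = 0.28). Hist1h1c, with AATAAA and 922 such bases, rose in both comparisons. Hist1h1d has 2311 such bases and no AATAAA, and Hist1h4j and Hist4h4 have AATAAA and 0 such bases. These also rose, but Hist1h1d and Hist4h4 were under 1 RPKM in every naive library, so their entry to the test favoured a rise. Hist1h4j rested on 2, 0 and 2 reads in the naive libraries. Hist2h2be, an H2B gene of the chromosome 3 cluster, had 1.38, 0.82 and 0.94 RPKM in CD138+ DMSO and 2.98, 2.84 and 2.42 RPKM in GL7+ DMSO, against 6.02, 4.64 and 5.26 RPKM in naive cells. The 3 groups lay in separate ranges. It fell by 1.63 ± 0.15 on the log2 scale in CD138+ DMSO (SE, limma adjusted p = 8.6e-08) and by 0.75 ± 0.15 in GL7+ DMSO (adjusted p = 0.00032).

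Hist3h2a, an H2A gene of the chromosome 11 cluster, had 3.63, 4.58 and 3.71 RPKM in CD138+ DMSO and 2.75, 2.77 and 2.05 RPKM in GL7+ DMSO, against 7.96, 3.43 and 8.46 RPKM in naive cells. The naive library of 3.43 RPKM is the shallow one, and it lies below every CD138+ DMSO value, whereas the other naive libraries lie above all of them. The gene fell by 1.04 ± 0.21 in GL7+ DMSO (SE, limma adjusted p = 4e-04) and by 0.54 ± 0.21 in CD138+ DMSO cells (adjusted p = 0.03). The second call was lost in 8 of 22 alternatives, with adjusted p-values of 5.4e-06 to 0.15.

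**Figure D3:**
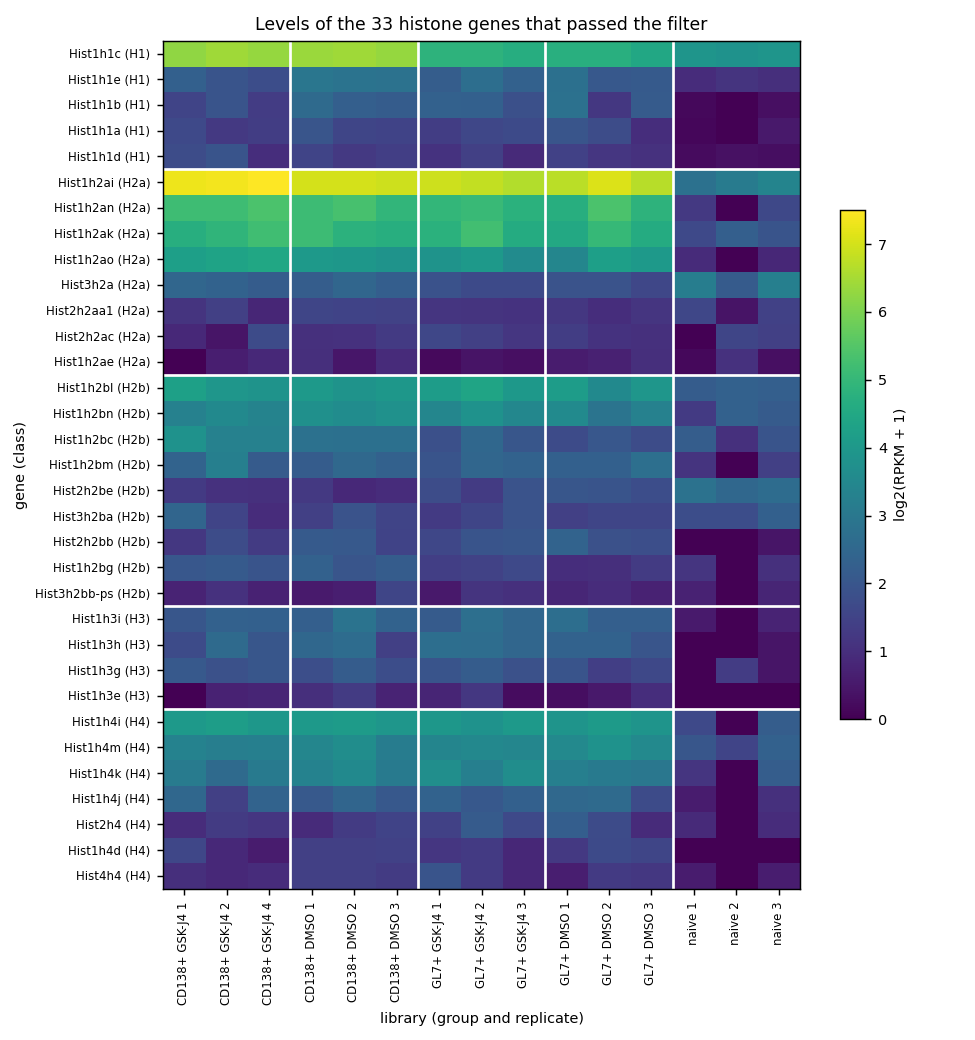
Level of the 33 tested members as log2(RPKM + 1) in every library, by class from H1 at the top to H4 at the bottom. Most genes are darkest, and so lowest, in the 3 naive columns, whereas Hist2h2be is brightest there.

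Genes of the cell cycle moved in the same comparisons. All 23 genes of an S phase list rose in CD138+ DMSO and 22 rose in GL7+ DMSO cells, with 1 lower, and all 15 G2 and M phase genes rose in both. Summed, the S phase genes had 1784 RPKM in CD138+ DMSO and 1916 RPKM in GL7+ DMSO, against 365 RPKM in naive cells. Slbp, which encodes the stem-loop binding protein, had 82.7 ± 4.11 RPKM in CD138+ DMSO and 96.5 ± 1.01 RPKM in GL7+ DMSO, against 37.3 ± 6.81 RPKM in naive cells (SD, n = 3 each). Of 20 tested genes of histone mRNA transcription and processing, 9 rose and 5 fell in CD138+ DMSO, and 14 rose and 3 fell in GL7+ DMSO cells. Of 20 histone chaperones, 15 rose and 2 fell in CD138+ DMSO, and 17 rose and 2 fell in GL7+ DMSO cells. Of all tested genes 39.9% passed higher and 43.5% lower in CD138+ DMSO, and 41.3% higher and 40.3% lower in GL7+ DMSO. Chaf1a, the large subunit of the assembly factor CAF-1, had 20.8 RPKM in CD138+ DMSO and 23.3 RPKM in GL7+ DMSO, against 2.83 RPKM in naive cells.

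Markers of other cells also separated naive from cultured libraries. Summed T cell markers (8 genes, 3 of them tested and all 3 lower in both comparisons) had 1.12 to 1.37 RPKM in CD138+ DMSO and 3.30 to 3.58 RPKM in GL7+ DMSO, against 22.5 to 28.0 RPKM in naive libraries. Myeloid markers (9 genes) had 5.71 to 8.97 RPKM in CD138+ DMSO and 10.6 to 14.1 RPKM in GL7+ DMSO, against 68.5 to 104 RPKM in naive libraries. Erythroid and platelet markers (5 genes) had 1.08 to 1.72 RPKM in CD138+ DMSO and 5.32 to 6.87 RPKM in GL7+ DMSO, against 66.9 to 81.3 RPKM in naive libraries. Their part in the histone results was not tested. In such bulk samples fewer cells of a type and less RNA per cell cannot be told apart.

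RNAs that normally lack a poly(A) tail were summed as an untested gauge of carry-over through the selection. The 114 genes of this kind, mostly small nucleolar RNAs, of which 17 had no read in any library, had 682 to 931 RPKM in CD138+ DMSO and 1141 to 1312 RPKM in GL7+ DMSO, against 1014 to 1213 RPKM in naive libraries. Of the 92 tested, 14 rose and 26 fell in CD138+ DMSO (median log2 change -0.11), and 22 rose and 16 fell in GL7+ DMSO (median 0.29), against naive cells. Its part in the histone results was not tested.

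The second question was how CD138+ cells differ from GL7+ cells of the same cultures under DMSO. Here most histone genes gave no call. Of the 33 tested members 4 passed higher and 1 lower, 15.2%, against 58.7% of all tested genes, of which 21.8% passed higher and 36.9% lower. Many tested members rest on few reads. Hist1h3h had 9 to 30 reads per DMSO library and an SE of 0.28, and Hist1h1c had 333 to 1562 reads and an SE of 0.07. The part of read number in the shares called or without overlap, here and with GSK-J4, was not tested. The count of 5 became 3 with a filter at 5 RPKM, and 8 with voom on the recovered reads, with a fit of only these groups or without naive replicate 2. The share of all genes called by these fits is not given here, so nothing particular to histone genes is read from the shifts. The members' median log2 difference was 0.12 where that of all genes was -0.10. The 4 that rose, Hist1h1c, Hist1h1e, Hist1h2bc and Hist1h2bg, all lie in the third block on chromosome 13. That block, drawn after the levels were seen, holds 10 of the 33 tested members, and its other tested members gave no call.

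Hist1h1c accounted for most of the difference between the fractions. From the values above its mean was 3.39 times higher in CD138+ DMSO than in GL7+ DMSO cells, a log2 difference of 1.72 ± 0.07 (SE, limma adjusted p = 1.1e-10), and the call held in all 23 alternatives. Summed, H1 stood at 96.3 ± 4.67 RPKM in CD138+ DMSO and 35.3 ± 5.71 RPKM in GL7+ DMSO (SD, n = 3 each). Hist1h1e had 6.74, 6.28 and 6.04 RPKM in CD138+ DMSO and 5.80, 3.21 and 3.38 RPKM in GL7+ DMSO, with a log2 difference of 0.55 ± 0.18 (SE, limma adjusted p = 0.015). Without GL7+ DMSO replicate 2 or 3 this call was lost, with adjusted p-values of 0.074 and 0.066.

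The H2B genes Hist1h2bc and Hist1h2bg rose too. Hist1h2bc had 5.96, 5.78 and 5.88 RPKM in CD138+ DMSO and 2.27, 3.12 and 2.38 RPKM in GL7+ DMSO, with no overlap and a log2 difference of 0.95 ± 0.25 (SE, limma adjusted p = 0.0046). Hist1h2bg had 4.03, 2.94 and 3.55 RPKM in CD138+ DMSO and 0.989, 0.995 and 1.49 RPKM in GL7+ DMSO, also without overlap (1.06 ± 0.23, adjusted p = 9.4e-04). With a pseudocount of 0.1 the adjusted p of Hist1h2bg was 0.068. Given their near-identical reading frames, the split of reads between them is uncertain. Of the stronger H2B genes, Hist1h2bl and Hist1h2bn did not pass (log2 differences of 0.07 and 0.48, adjusted p = 0.68 and 0.082).

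Hist2h2be was the member that fell, by 0.88 ± 0.15 on the log2 scale (SE, limma adjusted p = 1.6e-04), and all 22 alternatives kept the call. No tested H2a, H3 or H4 gene passed, but Hist3h2a was higher in CD138+ DMSO without overlap (0.50 ± 0.21, adjusted p = 0.059) and passed in 7 of 22 alternatives, with adjusted p-values of 8.1e-04 to 0.18. In all 9 of the 33 tested members (27.3%) had groups that did not overlap, against 71.3% of all tested genes. The H3 sum was 14.2 ± 3.37 RPKM in CD138+ DMSO and 12.3 ± 1.95 RPKM in GL7+ DMSO, and the H4 sum 44.4 ± 4.24 RPKM in CD138+ DMSO and 45.4 ± 4.79 RPKM in GL7+ DMSO, differences smaller than the spread between libraries.

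**Figure D4:**
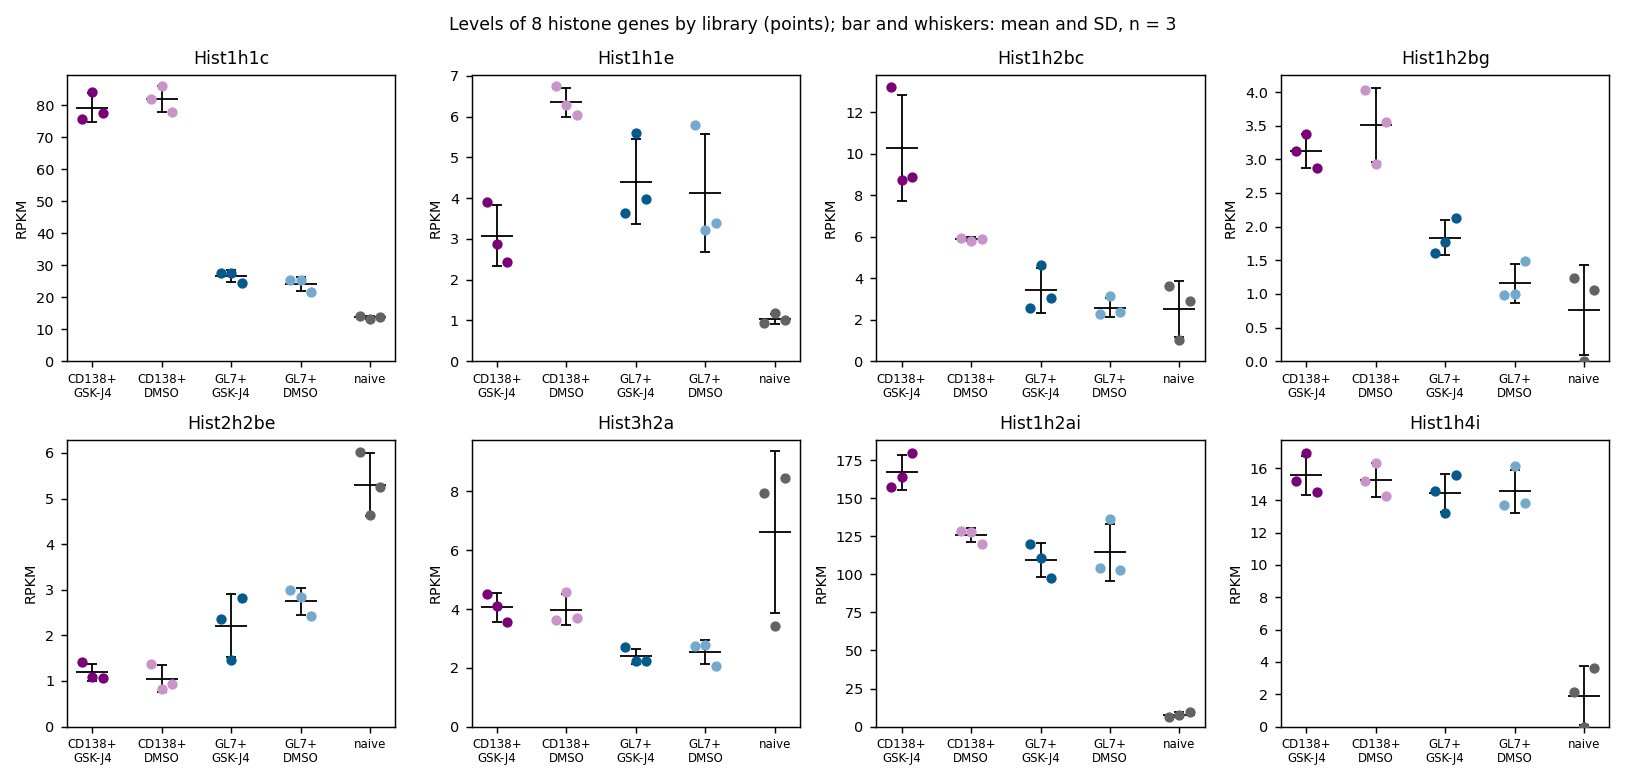
RPKM of 8 members in every library (points), with mean and SD (n = 3 per group). Hist1h1c, Hist1h2bc and Hist1h2bg are highest in the CD138+ groups, Hist2h2be is lowest in the CD138+ groups and highest in naive cells, and Hist1h4i is level across the 4 cultured groups.

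Other chromatin genes showed both patterns. H1f0, the linker histone of resting and differentiated cells, which is polyadenylated and not a member, had 117 ± 10.9 RPKM in CD138+ DMSO and 30.7 ± 1.29 RPKM in GL7+ DMSO (log2 difference 1.89 ± 0.09, SE, limma adjusted p = 5.5e-10). It was at 2.00 ± 0.447 RPKM in naive cells. Of the 10 tested histone variant genes 1, H1f0, rose and 5 fell, among them H2afy, which encodes macroH2A1 (30.3 ± 0.651 RPKM in CD138+ DMSO and 42.7 ± 0.737 RPKM in GL7+ DMSO). Of the 23 S phase genes 5 rose and 10 fell, of the 20 chaperones 2 rose and 13 fell, and of the 20 processing genes 2 rose and 9 fell. Of all tested genes 21.8% passed higher and 36.9% lower, so nothing particular to these lists is read from the counts. Among RNAs without a poly(A) tail 14 of 92 tested fell and 0 rose, with a median log2 difference of -0.47. Plasma cell markers, which check the fractions, summed to 2940 ± 110 RPKM in CD138+ DMSO and 632 ± 31.0 RPKM in GL7+ DMSO.

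The third question was whether GSK-J4 changed histone transcripts. Few members passed, and how many depended on the fit. In CD138+ cells 1 of the 33 tested members passed, Hist1h1e, which was lower (3.03%), against 13.2% of all tested genes, of which 4.61% passed higher and 8.61% lower. As in the comparison of fractions, many members rest on few reads, and the part of this in the share was not tested. The count of 1 became 2 with a filter at 5 RPKM, 3 with voom on the recovered reads and 7 with a fit of only these groups. Leaving out 1 library gave 4 without naive replicate 2, 3 without GL7+ DMSO replicate 2, and 2 without naive replicate 1, naive replicate 3 or CD138+ GSK-J4 replicate 1. For these alternatives the share of all genes called is not given, so nothing particular to histone genes is read from them. The median log2 change of the members was -0.10 where that of all genes was -0.03. In GL7+ cells 0 of 33 passed by limma, against 13.5% of all tested genes (5.81% higher and 7.71% lower). In that comparison 0 members had an unadjusted p under 0.05, and limma's voom fit on the recovered reads also called 0, whereas a fit of only these groups called 3, and leaving out naive replicate 2 gave 1. Again the share of all genes called by these alternatives is not given. Members' log2 changes ran from -0.47 to 0.46 there, with a median of 0.06, against -0.01 for all genes. The groups did not overlap in 5 of the 33 members (15.2%), against 40.6% of all tested genes.

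Hist1h1e had 3.90, 2.89 and 2.44 RPKM in CD138+ GSK-J4 and 6.74, 6.28 and 6.04 RPKM in CD138+ DMSO. The groups did not overlap. It fell by 0.87 ± 0.18 on the log2 scale (SE, limma adjusted p = 0.0055), and adjusted p-values over 23 alternatives were 0.0014 to 0.034. In GL7+ cells it had 3.65, 5.59 and 3.98 RPKM with GSK-J4 and 5.80, 3.21 and 3.38 RPKM with DMSO, which overlapped. The difference between the 2 fractions' changes was -0.96 ± 0.25 and did not pass (limma adjusted p = 0.094, with 0.023 to 0.2 over the alternatives). Hist1h1b had 1.91, 2.89 and 1.53 RPKM in CD138+ GSK-J4 and 5.07, 3.84 and 3.52 RPKM in CD138+ DMSO, without overlap, and did not pass (-0.74 ± 0.30, adjusted p = 0.12). Hist1h1c, the dominant H1 gene, had 75.6, 84.3 and 77.7 RPKM in CD138+ GSK-J4, which overlapped the CD138+ DMSO values above (-0.05 ± 0.07, adjusted p = 0.71).

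In CD138+ cells 8 of the 33 tested members (24.2%) had groups that did not overlap, against 36.8% of all tested genes. Higher with GSK-J4 were Hist1h2ai, Hist1h2ao and Hist1h2bc, and lower were Hist1h1b, Hist1h1e, Hist1h2bn, Hist2h2aa1 and Hist4h4, of which Hist1h1e passed. The values of Hist1h2ai and Hist1h2bc, which came nearest to the threshold after Hist1h1e, are given here. Hist1h2ai had 157, 164 and 180 RPKM in CD138+ GSK-J4 and 128, 128 and 120 RPKM in CD138+ DMSO. The groups did not overlap, and the change of 0.41 ± 0.13 on the log2 scale missed the threshold (SE, limma adjusted p = 0.055). Over 23 alternatives it ran from 0.35 to 0.45, with adjusted p-values of 0.0022 to 0.2, and passed in 7. Hist1h2bc had 13.2, 8.73 and 8.89 RPKM in CD138+ GSK-J4 and 5.96, 5.78 and 5.88 RPKM in CD138+ DMSO, again without overlap (0.69 ± 0.25, adjusted p = 0.086, passed in 3 of 23 alternatives). In GL7+ cells Hist1h2ai had 120, 111 and 97.7 RPKM with GSK-J4, against 104, 136 and 103 RPKM with DMSO, and the ranges overlapped.

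**Figure D5:**
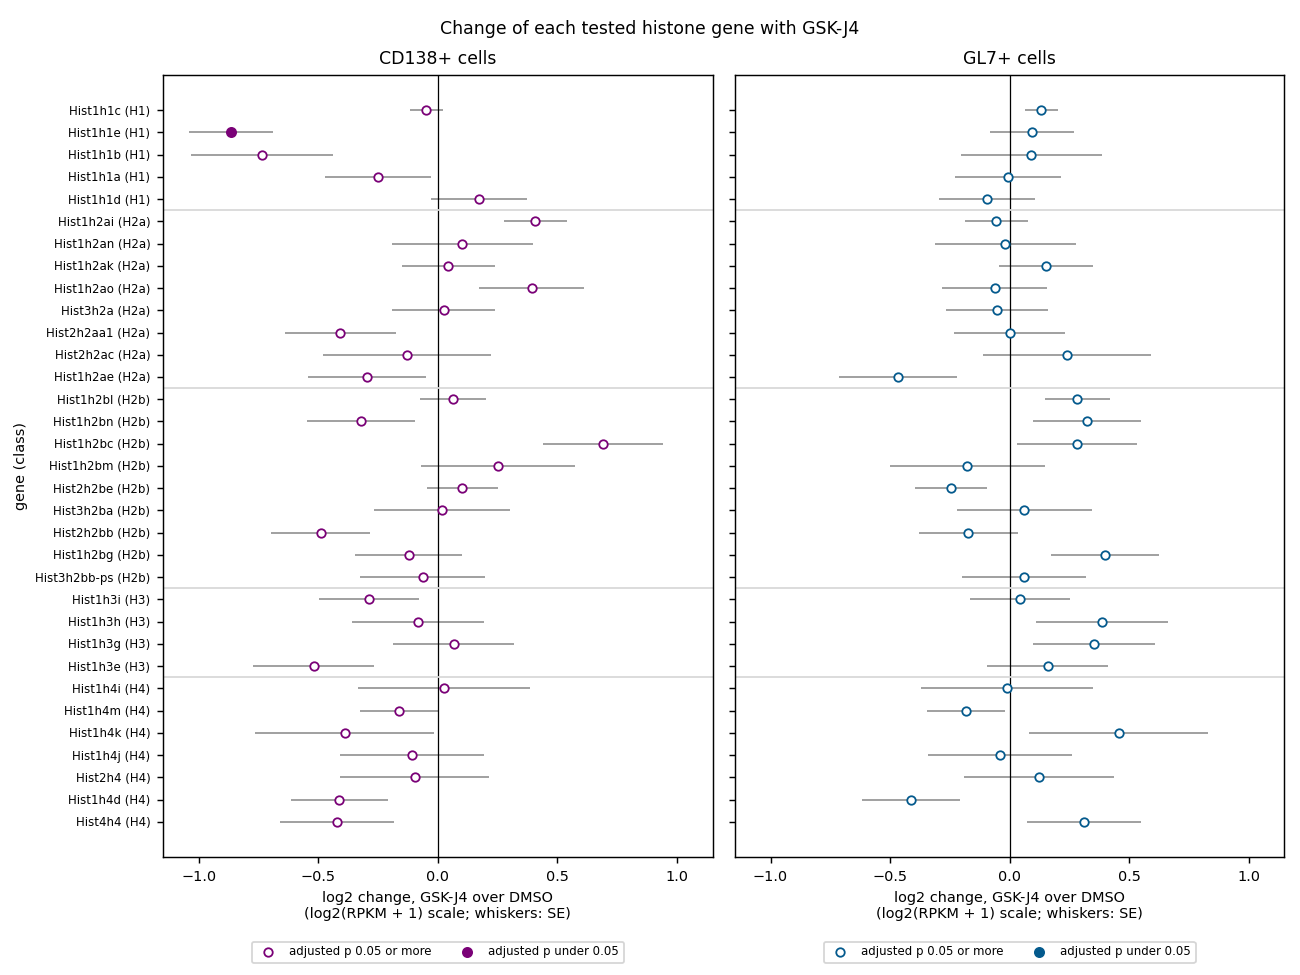
Log2 change with GSK-J4 over DMSO (log2(RPKM + 1) scale, whiskers SE) of each tested member in CD138+ cells (left) and GL7+ cells (right). The single filled point, Hist1h1e in CD138+ cells at -0.87, is the one member past the threshold.

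No member passed the test of the difference between the fractions' changes by limma, where 0.966% of all tested genes did (0.322% higher and 0.644% lower). An unadjusted p under 0.05 was reached by 3 members, and the voom fit called 2, Hist1h1e (lower) and Hist1h2ai (higher). The H2a sum was 262 ± 21.7 RPKM in CD138+ GSK-J4 and 212 ± 12.7 RPKM in CD138+ DMSO, with each library of the first group above each of the second. In GL7+ cells it was 188 ± 19.9 RPKM with GSK-J4 and 193 ± 34.9 RPKM with DMSO. The H3 sum was 15.4 ± 2.22 RPKM in GL7+ GSK-J4 and 12.3 ± 1.95 RPKM in GL7+ DMSO, with overlapping libraries. The H4 sum was 39.0 ± 2.50 RPKM in CD138+ GSK-J4 and 44.4 ± 4.24 RPKM in CD138+ DMSO, and 45.5 ± 2.52 RPKM in GL7+ GSK-J4 and 45.4 ± 4.79 RPKM in GL7+ DMSO (SD, n = 3 each).

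S phase genes, in contrast, moved with the drug. Of 23 such genes 8 rose and 0 fell in CD138+ cells, and 16 rose and 0 fell in GL7+ cells, with median log2 changes of 0.13 and 0.27. Of all tested genes 4.61% passed higher and 8.61% lower in CD138+ cells, and 5.81% higher and 7.71% lower in GL7+ cells. Rrm2, a subunit of ribonucleotide reductase, had 239 ± 8.21 RPKM in GL7+ GSK-J4 and 170 ± 2.18 RPKM in GL7+ DMSO (0.49 ± 0.05, SE, limma adjusted p = 8.2e-05). Among the histone transcription and processing genes Ccne2, cyclin E2, whose kinase activates histone gene transcription through NPAT, had 12.4 ± 2.41 RPKM in CD138+ GSK-J4 and 7.12 ± 0.983 RPKM in CD138+ DMSO (adjusted p = 0.0022), and 11.4 ± 0.899 RPKM in GL7+ GSK-J4 and 7.11 ± 0.50 RPKM in GL7+ DMSO (adjusted p = 0.006). Slbp rose in GL7+ cells, to 121 ± 4.91 RPKM with GSK-J4, against 96.5 ± 1.01 RPKM with DMSO (0.33 ± 0.09, adjusted p = 0.034). No G2 or M phase gene of 15 passed in either fraction by limma, where 4 in CD138+ and 1 in GL7+ cells had an unadjusted p under 0.05.

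The variant H2afz, which encodes H2A.Z, fell with GSK-J4 in CD138+ cells, to 272 ± 15.6 RPKM, against 348 ± 10.2 RPKM with DMSO (log2 change -0.35 ± 0.08, SE, limma adjusted p = 0.0084). It was the 1 histone variant of 10 that passed there, and 0 passed in GL7+ cells, where 3 had an unadjusted p under 0.05. Of the RNAs without a poly(A) tail 3 of 92 fell in CD138+ cells, with a median log2 change of -0.36, and 1 fell in GL7+ cells, with a median of 0.02. Mature B cell markers summed to 846 ± 23.1 RPKM in CD138+ GSK-J4 and 1064 ± 32.5 RPKM in CD138+ DMSO, and to 1395 ± 96.0 RPKM in GL7+ GSK-J4 and 1742 ± 46.5 RPKM in GL7+ DMSO. Plasma cell markers summed to 3215 ± 92.8 RPKM in CD138+ GSK-J4 and 2940 ± 110 RPKM in CD138+ DMSO, where 0 of 5 passed by limma and 0 had an unadjusted p under 0.05. In GL7+ cells all 5 rose, with sums of 825 ± 48.0 RPKM with GSK-J4 and 632 ± 31.0 RPKM with DMSO. The part of these in the values of the histone, S phase and processing genes was not tested.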

How the data were processed

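The authors deposited RPKM per gene and a gene length in bases, per the file headers. Reads were aligned with TopHat2 to mm9, per the submitters' processing notes, and no source used here names the counter, strand setting or annotation. Without strand, overlapping genes cannot be told apart. RPKM times length gave whole reads, within 0.1 read, for 100% of values up to 20 reads, and so each library's depth. All 15 libraries entered 1 limma 3.58.1 fit (R 4.3.3) on log2(RPKM + 1) with 1 mean for each group and limma's trend option. Genes with at least 1 RPKM in 3 libraries were tested, with Benjamini-Hochberg adjustment over 10866 genes. There were 6 comparisons: GSK-J4 against DMSO in each fraction, their difference, CD138+ against GL7+ under DMSO, and CD138+ DMSO and GL7+ DMSO each against naive. The fit was tested on simulated data for 1 comparison, GSK-J4 against DMSO in CD138+ cells, with the same dispersion for every gene. That test says nothing of the other comparisons.

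Members and gene lists were chosen with earlier results of these data known. Named members were the 3 highest of each class and, per comparison, up to 3 per direction with the smallest adjusted p among those past the threshold without overlap. Members outside it, and list genes beyond the 3 with the smallest adjusted p, were named where a count or a role called for it, after their values were seen. The CD138+ GSK-J4 column numbered 4 matched a group and no single sample. Replicate numbers are mouse numbers, per the labels, and so pair them. As a check, the median correlation of library deviations was 0.09 over 15 same-mouse pairs (-0.03 to 0.19) and -0.03 over 30 pairs of different mice. Where nothing says that cultures were separate, p-values measure the spread between these samples. Alternatives were other pseudocounts, filters and scalings, voom on the recovered reads, the mouse as a block, a fit of only the groups compared, and leaving out each library. Sequences came from GENCODE M21 and RefSeq, both of GRCm38 and not the build of alignment. The GENCODE transcripts were matched to members by symbol alone, and the RefSeq promoters and gene order by gene identifier. Python 3.11.15 and matplotlib 3.10.9 were used for sums, sequences and figures.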

Additional observations from a re-analysis of the deposited data

How the results depend on the processing

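The counts of members past the threshold were 25 to 28 for CD138+ DMSO against naive cells when each library was left out in turn (27 with all), 24 to 26 for GL7+ DMSO against naive cells (26), 4 to 8 for CD138+ DMSO against GL7+ DMSO (5), 1 to 4 for GSK-J4 in CD138+ cells (1), 0 to 1 for GSK-J4 in GL7+ cells (0) and 0 to 1 for the difference (0). The count of 8 came without naive replicate 2, the shallow library. For GSK-J4 in CD138+ cells the count was 4 without naive replicate 2, 3 without GL7+ DMSO replicate 2, and 2 without naive replicate 1, naive replicate 3 or CD138+ GSK-J4 replicate 1. In GL7+ cells the 1 call, without naive replicate 2, was Hist1h2bg, and the 1 call of the difference, without GL7+ DMSO replicate 1, was Hist1h1e. A filter at 5 RPKM, which leaves 14 members to test, gave 14, 13, 3 and 2 calls in the first 4 comparisons. Voom on the recovered reads gave 8 for CD138+ against GL7+ DMSO, 3 for GSK-J4 in CD138+ cells and 2 for the difference. A fit of only the groups compared gave 8, 7 and 3 for CD138+ against GL7+ DMSO, GSK-J4 in CD138+ cells and GSK-J4 in GL7+ cells. The cause of these shifts was not tested, apart from the smaller number of members at 5 RPKM. The share of all genes called is not set beside these counts, so they are not read as particular to histone genes. With the mouse as a replicate block the counts were 27, 26, 5, 1, 0 and 0, and no call of a named member changed. For the named members 2545 of 2592 values under alternatives kept their call, 36 gained one, 11 lost it and 0 reversed. TMM scaling moved the median log2 change of all genes from -0.05 to 0.08 for CD138+ DMSO against naive cells. Depth limits naive replicate 2: at 1318004 reads, a count of 0 allows up to 7.30 RPKM for the shortest H4 genes.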
